A study of Mus musculus with 71 samples.

Results

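Chromatin accessibility was compared between p2 progenitors sorted as NFIA-positive (NFIAp) and NFIA-negative (NFIAn) on day 9 of differentiation. The comparison used 2 NFIAp libraries, replicates 1 and 3, against 3 NFIAn libraries, 5 of the 71 libraries of the series. The members were chosen by their titles, except that replicate 2 of the NFIAp group was left out because its accessibility lay with pMN libraries. It is given apart throughout. All 6 libraries came from wild-type (WT) mouse embryonic stem cells grown in culture. The cells received bFGF, then the GSK3 inhibitor CHIR99021, then retinoic acid with the Smoothened agonist SAG, and SAG alone from day 5. Cells were cleared of dead cells, fixed, transposed, stained inside the cell and sorted, a procedure called CaTS-ATAC. The groups set beside them were the WT pMN fractions of day 9, with 3 NFIAp and 2 NFIAn libraries, WT p2 of day 7 (NFIAn, n = 3) and WT p2 of day 11 (NFIAp, n = 3). MUT p2 libraries, all NFIAn, were available on days 5 (n = 3), 7 (n = 3), 9 (n = 2) and 11 (n = 3). WT p2 of day 5 (NFIAn, n = 2) was used for levels. WT p0-p1 was used on days 7 and 9 (NFIAn, n = 3 each) and 11 (NFIAp, n = 3). Comparisons of p2 with pMN also used pMN of WT day 7 (NFIAn, n = 3), WT day 11 (NFIAp, n = 3) and MUT day 9 (NFIAn, n = 2). Which gene is mutated is not in the labels. The labels do not describe replicates as separate cultures. The spread behind each p-value is therefore that between libraries, and it may be technical.

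The ventral neural tube is divided by Sonic hedgehog signalling into progenitor domains, and SAG activates that pathway. The p2 domain gives rise to V2 interneurons. The neighbouring pMN domain, marked by Olig2, gives rise to motor neurons and later to oligodendrocyte precursors, and the p0 and p1 domains lie dorsal to p2. NFIA is a transcription factor of the nuclear factor I family. It appears in spinal cord progenitors as they pass from making neurons towards making glia. ATAC-seq counts insertions of the transposase Tn5, which cuts preferentially in open chromatin, so a higher count in an interval reads as more accessible DNA.

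The 6 p2 libraries of day 9 held between 22158034 and 29142558 reads in 155738 numbered intervals. Values are read counts divided by 1 size factor per library, called normalised reads here. At the median interval level of 27.9 normalised reads, counting error alone was 18.9%. The intervals carry no positions or gene names, so the sorted identities were not checked against marker genes and intervals are named by number. In 2 other libraries, WT pMN and MUT pMN replicate 3 of day 7, the summed reads of 5 intervals that separate the genotypes went against the labels (0 and 213 reads). In a mixed population, a change in the share of cells of a type and a change in accessibility within cells cannot be told apart.

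The place of each library between p2 and pMN was measured first, because replicate 2 was left out on that ground. Intervals called between p2 and pMN in libraries other than these set 3 axes, each scaled so that the p2 mean of its own libraries lies at 0.5 and the pMN mean at -0.5. On the axis from MUT day 9, NFIAp replicate 2 lay at -0.48, beside the pMN libraries of the same day, which lay between -0.56 and -0.48. NFIAp replicates 1 and 3 lay at -0.09 and -0.02, against 0.27, 0.37 and 0.41 for the NFIAn libraries. The retained NFIAp libraries therefore lay between the NFIAn p2 libraries and pMN, without overlap with either, and at the place of WT p2 of day 11, whose libraries lay between -0.10 and -0.01. On the axis from WT day 11 they lay at 0.50 and 0.54, against 0.69 to 0.72 for NFIAn, and replicate 2 at 0.21. On the axis from WT day 7 they lay at 0.26 and 0.29, against 0.46 to 0.48 for NFIAn, and replicate 2 at -0.26. Without the WT pMN library of day 7 that went against its label, the last axis gave 0.17 and 0.22 for the retained NFIAp libraries, against 0.38, 0.41 and 0.44 for NFIAn.

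**Figure D1:**
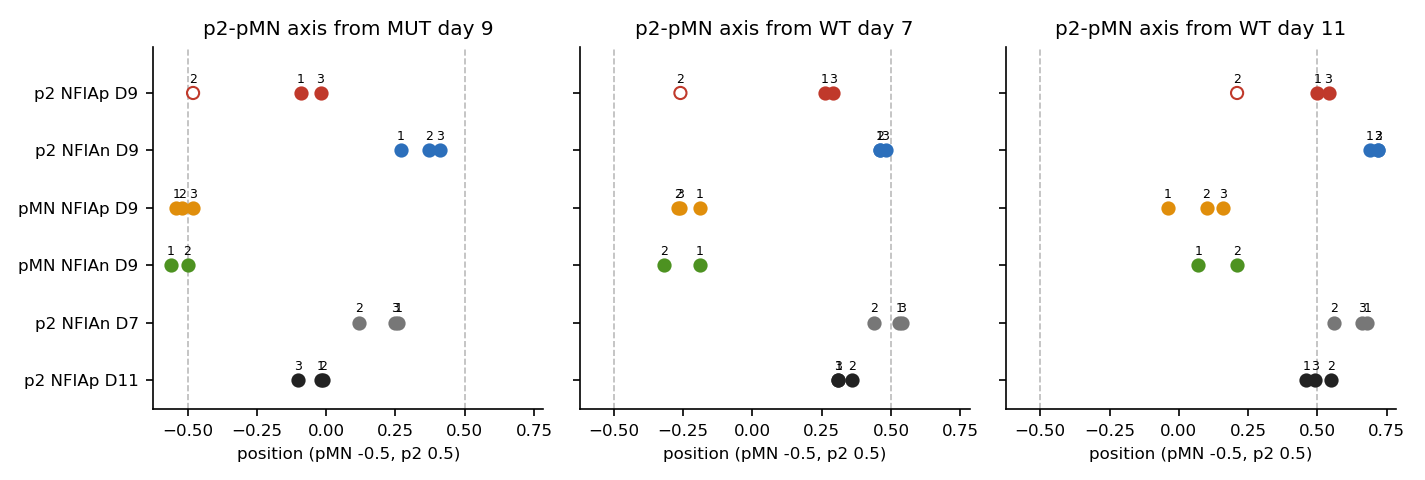
Position of each WT library on 3 axes that run from pMN (-0.5) to p2 (0.5), with groups down the page and replicate numbers above the points. The hollow point is NFIAp replicate 2, which lies among the pMN libraries, while replicates 1 and 3 lie between pMN and the NFIAn p2 libraries on the axis from MUT day 9.

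The axes were set by 6219 intervals higher in p2 than in pMN (3.99% of those tested) and 2161 lower (1.39%) in MUT day 9. For WT day 7 there were 3080 (1.98%) and 3758 (2.41%), and for WT day 11 there were 3416 (2.19%) and 2761 (1.77%). Calls needed an adjusted p (limma, Benjamini-Hochberg) under 0.05 and a log2 change of 1 or more in size. Changes are of log2(normalised reads + 5), which understates the change of low intervals.

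Accessibility differed between the fractions in both directions. In NFIAp, 5664 of 155734 tested intervals were higher than in NFIAn (3.64%) and 4716 were lower (3.03%). The called changes were mostly near the threshold, with a median log2 change of 1.23 among the higher intervals (quartiles 1.10 and 1.45) and -1.20 among the lower ones (quartiles -1.37 and -1.09). The change exceeded 2 in size in 231 higher and 27 lower intervals. Intervals that were higher started from low accessibility, with a median level of 44.1 normalised reads in NFIAp against 13.0 in NFIAn. Intervals that were lower had a median level of 29.6 normalised reads in NFIAp against 78.5 in NFIAn. The libraries of the fractions did not overlap in 90.7% of the higher and 98.9% of the lower intervals, against 39.4% of all tested. With the intervals ordered by level into 5 equal bins, higher calls were most frequent at mean levels of 20.1 to 40.7 normalised reads, at 5.55% of that bin, and lower calls at 40.7 to 122, at 5.26%.

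The fit estimated 1 spread from 70 libraries in 26 groups, and the call counts rest on that. The standard deviation within a group was 0.41 in NFIAp (n = 2) and 0.28 in NFIAn (n = 3) on the log2 scale, against 0.31 over all groups. With a spread from these 5 libraries alone, 2249 intervals were higher and 3804 lower, and with replicate 2 included 1781 were higher and 4058 lower. For a single interval, an exact permutation test of 2 libraries against 3 cannot go below a two-sided p of 0.1, so no such test was made.

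**Figure D2:**
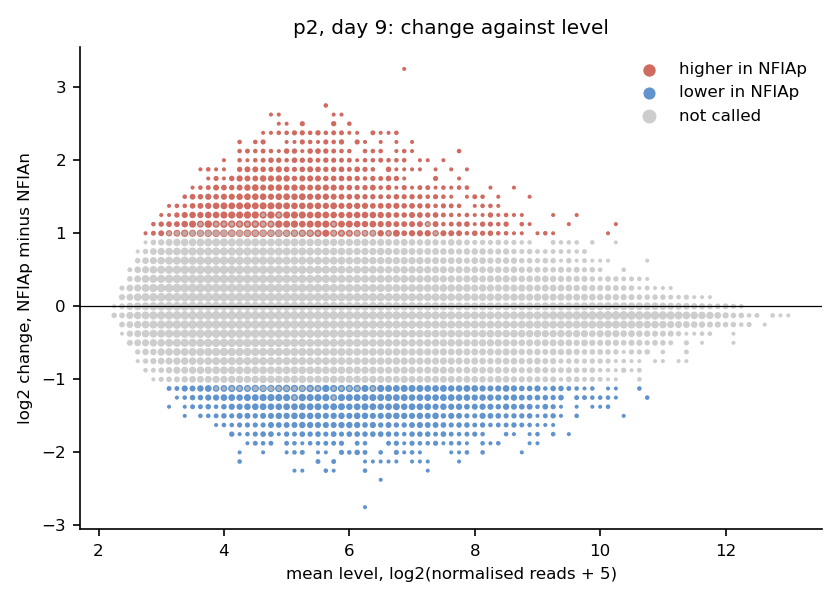
Log2 change of NFIAp minus NFIAn p2 libraries on day 9 (vertical) against mean level (horizontal, log2 of normalised reads + 5), with intervals binned and point size rising with the number in a bin. Called higher intervals lie at lower levels than called lower ones, and the largest change is 3.32.

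The interval with the largest change was Interval_111534. It held 469 and 73.1 normalised reads in NFIAp replicates 1 and 3, against 36.3, 8.79 and 7.58 in the NFIAn libraries, a log2 change of 3.32 ± 0.51 (SE, limma adjusted p = 2.97e-06). Both NFIAp libraries lay above every NFIAn library, but they differed from each other more than the NFIAn libraries did from one another, and replicate 2 held 9.33. The interval is nearly closed on day 7 in WT p2, with 3.75 ± 1.85 normalised reads (SD, n = 3), and wide open on day 11, with 1283 ± 159 (SD, n = 3). In MUT p2 of day 11 it reached 99.1 ± 49.1 (SD, n = 3).

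Interval_64236 had the same course. Its NFIAp libraries held 164 and 35.6 normalised reads, against 16.8, 3.29 and 4.21 in NFIAn, a log2 change of 2.80 ± 0.42 (limma adjusted p = 2.03e-06). It was also called in pMN, where NFIAp averaged 82.1 ± 47.1 (SD, n = 3) and NFIAn 17.8 ± 18.2 (SD, n = 2), a log2 change of 2.07 (limma adjusted p = 0.0175). Interval_118954 was the other interval with the largest change among those called in both populations. It held 124 and 26.2 normalised reads in NFIAp p2 against 9.31, 5.49 and 3.37 in NFIAn p2, and the pMN log2 change was 1.84 (limma adjusted p = 0.0375). In WT p2 it averaged 1.71 ± 1.40 on day 7 and 922 ± 81.9 on day 11 (SD, n = 3 each), and in MUT p2 of day 11 33.9 ± 12.7 (SD, n = 3).

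Another group of intervals was high in replicate 3. Interval_1745 held 25.4 normalised reads in NFIAp replicate 1 and 185 in replicate 3, against 1.86, 8.79 and 7.58 in NFIAn. Interval_55010 held 36.6 and 212, against 5.59, 13.2 and 10.9, and Interval_4706 held 46.0 and 234, against 12.1, 15.4 and 11.8. Interval_87424 held 36.6 and 189, against 4.66, 11.0 and 13.5. In these 4 intervals replicate 3 lay furthest from NFIAn, while in Interval_111534, Interval_64236 and Interval_118954 replicate 1 did. In pMN of day 9, Interval_1745 averaged 6.16 ± 2.84 in NFIAp (SD, n = 3) and 8.63 ± 4.72 in NFIAn (SD, n = 2), so no rise was called there (limma adjusted p = 0.876).

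The intervals with the smallest adjusted p had NFIAp libraries close to each other. Interval_70228 held 218 and 220 normalised reads in NFIAp, against 70.8, 42.8 and 32.0 in NFIAn (log2 change 2.13 ± 0.22, limma adjusted p = 4.51e-10). Interval_145797 held 168 and 113, against 22.4, 19.8 and 21.9, and Interval_12504 held 90.2 and 141, against 27.9, 16.5 and 16.0. The first 2 of these did not pass the test over time in MUT p2, with log2 changes of 0.18 and 0.46 between days 11 and 7, while in WT p2 they rose by 3.08 and 4.39. Interval_12504 rose in both genotypes, by a log2 change of 2.97 in MUT p2, and averaged 20.8 ± 1.98 normalised reads on day 7 and 287 ± 25.5 on day 11 in WT p2 (SD, n = 3 each). The most accessible higher intervals were Interval_1047, with 2639 and 1149 normalised reads in NFIAp against 1119, 671 and 606 in NFIAn, and Interval_143474, with 1844 and 1468 against 1063, 715 and 711.

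Among the lower intervals the change was largest in Interval_123167. It held 4.70 and 28.1 normalised reads in NFIAp, against 80.1, 126 and 128 in NFIAn, a log2 change of -2.67 ± 0.34 (SE, limma adjusted p = 4.22e-08). All NFIAn libraries lay well above both NFIAp libraries, and replicate 2 held 6.22. The pMN libraries of day 9 were low in both fractions, with 8.93 ± 4.94 in NFIAp (SD, n = 3) and 7.63 ± 3.31 in NFIAn (SD, n = 2). WT p2 averaged 96.5 ± 31.1 on day 7 and 4.82 ± 3.96 on day 11 (SD, n = 3 each). Interval_111453 likewise held 17.9 and 26.2 in NFIAp, against 98.7, 158 and 127 in NFIAn, and had 19.6 ± 1.96 in WT p2 of day 11 (SD, n = 3).

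Interval_43009, Interval_82656 and Interval_28002 were lower in NFIAp p2 and open in pMN. Interval_43009 held 31.9 and 59.0 normalised reads in NFIAp p2, against 167, 248 and 264 in NFIAn p2 (log2 change -2.22 ± 0.24, limma adjusted p = 1.19e-09). In pMN it averaged 133 ± 35.7 in NFIAp (SD, n = 3) and 173 ± 75.5 in NFIAn (SD, n = 2), and replicate 2 held 171, in the pMN range. Interval_82656 had the smallest adjusted p of all, with 637 and 650 normalised reads in NFIAp, against 1303, 1586 and 1562 in NFIAn (log2 change -1.19 ± 0.09, limma adjusted p = 1.7e-14). Replicate 2 held 1885 there, above every NFIAn library, and pMN averaged 1434 ± 131 in NFIAp (SD, n = 3) and 1751 ± 113 in NFIAn (SD, n = 2). Interval_28002 held 630 and 594 in NFIAp, against 1369, 1524 and 1578 in NFIAn, and was not called over time in WT p2, which averaged 907 ± 64.9 on day 7 and 892 ± 97.3 on day 11 (SD, n = 3 each). Both NFIAp libraries of day 9 lay below the means of both days, while pMN averaged 1149 ± 47.8 in NFIAp (SD, n = 3) and 1254 ± 43.0 in NFIAn (SD, n = 2). Interval_20328, Interval_48955, Interval_13351 and Interval_88981 were lower in NFIAp with log2 changes of -2.22, -2.21, -2.20 and -1.43. Of these, Interval_88981 was open in pMN, with 537 ± 63.3 normalised reads in NFIAp (SD, n = 3) and 643 ± 168 in NFIAn (SD, n = 2), while Interval_48955 and Interval_13351 averaged between 4.55 and 10.2 there.

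**Figure D3:**
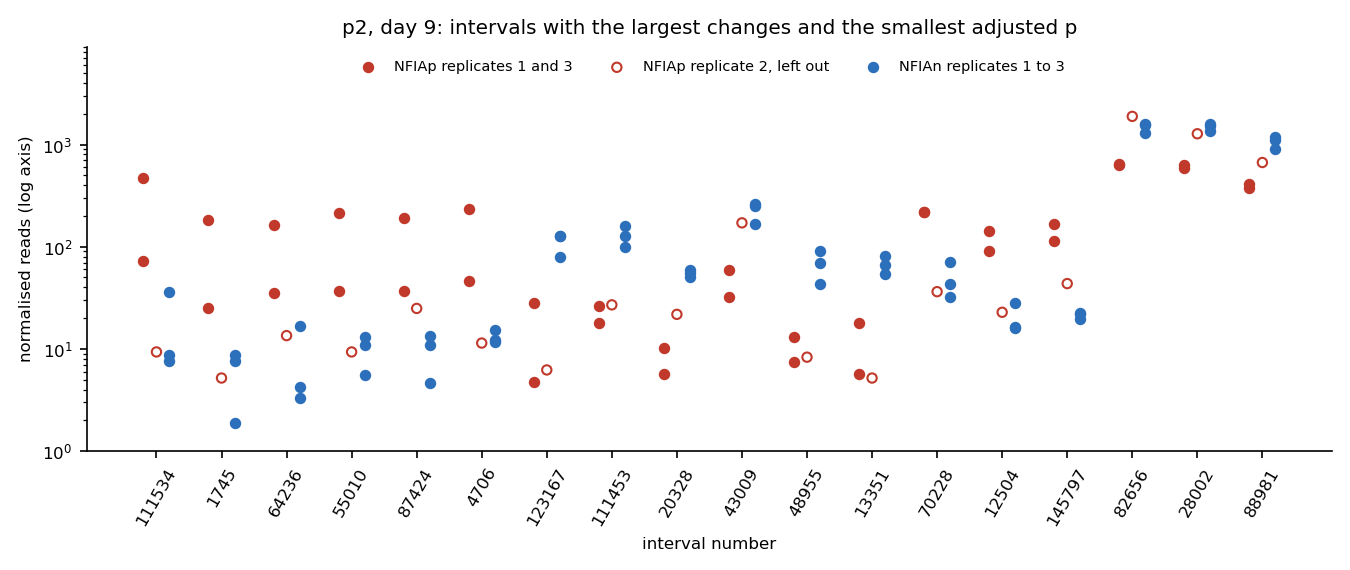
Normalised reads (log axis) of the 18 intervals with the largest changes or the smallest adjusted p, in each p2 library of day 9, NFIAp left of NFIAn. In Interval_1745, Interval_55010, Interval_87424 and Interval_4706 the upper NFIAp point is replicate 3, and the hollow points are NFIAp replicate 2, which in Interval_82656 lies above the NFIAn libraries.

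The 2 retained NFIAp libraries supported different higher calls. With only replicate 1 in the NFIAp group 7762 intervals were higher, and with only replicate 3 there were 5524, each lone library being taken to vary like the other groups. Both settings use the same NFIAn libraries. Of the 5664 higher calls, 55.0% were called with replicate 1 alone, 54.7% with replicate 3 alone and 14.6%, or 829 intervals, with each alone. The lower calls depended less on 1 library. Of the 4716, 80.5% were called with replicate 1 alone, 56.3% with replicate 3 alone and 42.9%, or 2025 intervals, with each alone. The root mean square log2 distance between NFIAp replicates 1 and 3 was 0.58, against 0.36 to 0.41 between NFIAn libraries. From NFIAn replicates 1, 2 and 3 the distances were 0.57, 0.69 and 0.72 for NFIAp replicate 1. For NFIAp replicate 3 they were 0.60, 0.63 and 0.63. The retained libraries thus lay about as far from each other as from the nearest NFIAn library.

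The WT time course asks whether the fraction difference has the direction of ageing. In WT p2, 33635 intervals rose from day 7 to day 11 (21.6%) and 26021 fell (16.7%). Day and NFIA fraction change together in that course, since WT libraries were NFIAn on day 7 and NFIAp on day 11, and it shares no library with the day 9 fractions. Of the intervals higher in NFIAp, 67.4% rose over time and 2.22% fell, and their median log2 change over time was 1.90, against 0.00 for all tested. Of the intervals lower in NFIAp, 42.4% fell over time and 151 intervals rose, with a median of -0.81. The share of higher calls that rose over time was 89.3% with replicate 1 alone and 34.4% with replicate 3 alone, so its size is set largely by replicate 1, although both shares lie above 21.6%. For the lower calls the share that fell was 46.8% with replicate 1 alone and 35.0% with replicate 3 alone. Of the 829 higher calls that each library gave alone, 81.8% rose over time. Of the 4695 intervals called with replicate 3 alone and not with replicate 1 alone, 26% rose and 8.5% fell, a rising share near the 21.6% of all tested.

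Not all differences followed the time course. Among higher calls, 1504 intervals (26.6%) were called neither over time in WT or MUT p2 nor between the genotypes on day 11, and 2157 of the lower calls (45.7%) were not. Of all tested intervals, 54.0% were in that class. Only 126 higher intervals fell in WT p2 over time. The pair with the largest fraction change among them were Interval_124534, with 66.7 and 54.3 normalised reads in NFIAp against 15.8, 14.3 and 18.5 in NFIAn, and Interval_40548, with 45.1 and 121 against 16.8, 31.9 and 16.8. Of the 151 lower intervals that rose over time, 2 are given. Interval_140035 held 54.5 and 101 in NFIAp, against 271, 280 and 335 in NFIAn, and averaged 63.1 ± 25.2 on day 7 and 139 ± 38.9 on day 11 in WT p2 (SD, n = 3 each). Interval_31666 held 106 and 83.4, against 295, 350 and 319, and averaged 113 ± 20.0 on day 7 and 256 ± 40.5 on day 11 (SD, n = 3 each). In these 2 intervals the NFIAn fraction of day 9 was above both ends of the course.

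A time course in another population gave a like result for the higher intervals and not for the lower ones. In WT p0-p1, 34475 intervals rose from day 7 to day 11 (22.1%) and 23046 fell (14.8%). Of the intervals higher in NFIAp p2, 59.7% rose in p0-p1 and 4.03% fell. Of those lower in NFIAp p2, 19.2% fell and 15.9% rose, with a median log2 change of 0.00. Over the intervals that rose in p0-p1, NFIAp replicates 1 and 3 of p2 had a median log2 change of 0.89 and 0.57 from WT p2 of day 7, against 0.52, 0.43 and 0.40 in NFIAn replicates 1, 2 and 3. Replicate 2 had 0.33, below all of them. WT p2 of day 11 had between 1.46 and 1.75. In each WT group of day 9 replicate 1 lay furthest along, at 0.87 in pMN NFIAp, 0.48 in pMN NFIAn and 0.62 in p0-p1, and the part of this in the fraction difference was not tested. Within replicate 1 of p2 the fractions had 0.89 in NFIAp and 0.52 in NFIAn, and within replicate 3 they had 0.57 in NFIAp and 0.40 in NFIAn. Over the intervals that fell in p0-p1, NFIAp had -0.99 and -0.89, against -0.89, -0.73 and -0.82 in NFIAn, so replicate 3 of NFIAp met the NFIAn range at its end. In these medians NFIAp replicates 1 and 3 lay beyond the NFIAn libraries of the same number in the direction of day 11, and short of day 11. NFIAp replicate 2 lay short of NFIAn replicate 2 over the rising intervals, at 0.33 against 0.43. Over the falling intervals it lay beyond NFIAn replicate 2, at -0.79 against -0.73. The labels do not pair libraries by number.

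**Figure D4:**
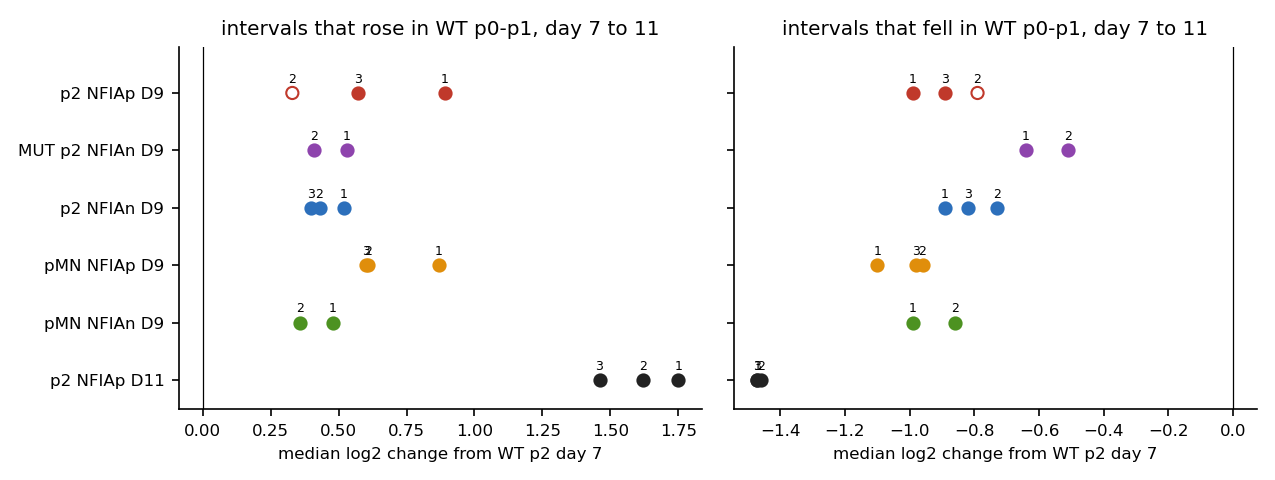
Median log2 change from WT p2 of day 7 for each library, over intervals that rose (left) or fell (right) in WT p0-p1 from day 7 to day 11, with replicate numbers above the points and NFIAp replicate 2 hollow. In the left panel p2 NFIAp replicates 1 and 3 lie at 0.89 and 0.57, right of the NFIAn libraries (0.40 to 0.52) and left of day 11 (1.46 to 1.75).

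MUT p2 libraries, all NFIAn, show what happens to these intervals when the course runs in the other genotype. In MUT p2, 25982 intervals rose between days 7 and 11 (16.7%) and 21206 fell (13.6%). On day 11, 3958 intervals were higher in MUT than in WT p2 (2.54%) and 12231 were lower (7.85%). With equal library totals that split was 7916 higher and 10450 lower. The MUT libraries of day 11 were NFIAn and the WT ones NFIAp, so genotype and fraction cannot be told apart there. Of the intervals higher in the NFIAp fraction of day 9, 41.0% rose over time in MUT and 40.2% were lower in MUT than in WT on day 11. The share lower in MUT was 42.0% with replicate 1 alone and 20.0% with replicate 3 alone. Their median level was 26.1 ± 3.62 normalised reads in MUT p2 of day 11 and 58.9 ± 6.70 in WT p2 of day 11 (SD over libraries, n = 3 each). On day 9 it was 13.6 ± 0.87 in MUT p2 (SD, n = 2), near the 13.3 ± 0.68 of the WT NFIAn fraction (SD, n = 3).

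Intervals that rose in WT p2 over time and were lower in MUT on day 11, comparisons that share the WT libraries of day 11, held the largest share of higher calls among the classes over time. There were 11146 of them, and 20.0% were called higher in NFIAp on day 9, against 3.64% of all intervals. Their median log2 change from day 7 was 0.91 and 0.59 in NFIAp replicates 1 and 3, against 0.30, 0.20 and 0.20 in NFIAn replicates 1, 2 and 3. It was 0.21 in replicate 2, 0.10 and 0.11 in MUT p2 of day 9 and between 2.26 and 2.62 in WT p2 of day 11. Among the 16569 intervals that rose in both genotypes and were not called different on day 11, 7.44% were called higher in NFIAp. There the values were 1.23 and 0.74 in NFIAp, against 0.76, 0.56 and 0.51 in NFIAn, so NFIAp replicate 3 lay within the NFIAn range. Taken over all these libraries, the first class separated the fractions without overlap and the second did not. Against NFIAn libraries of the same number, which the labels do not pair, NFIAp replicates 1 and 3 lay higher in both classes. In the second class this was 1.23 against 0.76 and 0.74 against 0.51.

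The lower intervals had a course of their own. Their median level in WT p2 was 28.1 normalised reads on day 5, 62.2 on day 7, 78.8 in NFIAn of day 9 and 30.3 on day 11, and it was 29.5 in NFIAp of day 9. MUT p2 followed the same rise and fall, with 26.5, 65.3, 97.2 and 45.9 on days 5, 7, 9 and 11. In MUT, 27.1% of the lower intervals fell from day 7 to day 11, and 8.65% were higher in MUT than in WT on day 11, against 2.54% of all tested. The higher intervals, in contrast, stayed between 12.0 and 14.0 in WT p2 up to day 7 and in NFIAn of day 9. They stood at 40.8 in NFIAp of day 9 and at 58.9 on day 11. The day 9 fractions of p2 chose both sets, so the levels of these fractions are no separate test. The median level of all tested intervals in WT p2 was 28.1 in NFIAp of day 9, 26.8 in NFIAn of day 9 and 31.9 on day 11.

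**Figure D5:**
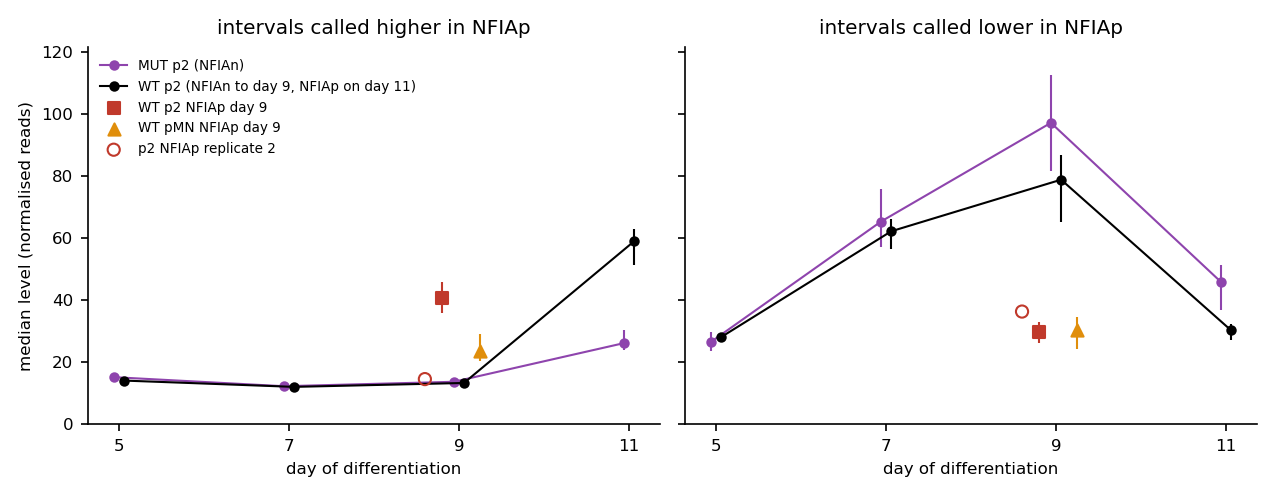
Median level (normalised reads, mean over libraries, vertical lines from the lowest to the highest library) of the intervals called higher (left) and lower (right) in NFIAp, by day of differentiation. In the right panel WT p2 NFIAp of day 9 lies at 29.5 and WT p2 NFIAn of day 9 at 78.8. WT p2 of day 11 lies at 30.3 there and WT pMN NFIAp of day 9 at 30.2. The p2 fractions of day 9 chose the intervals of both panels.

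The lower intervals differed between p2 and pMN more often than the tested intervals as a whole. Of the intervals lower in NFIAp, 39.8% were higher in p2 than in pMN in MUT of day 9, against 3.99% of all tested. The share was 17.3% in WT of day 7 and 18.9% in WT of day 11, against 1.98% and 2.19% of all tested. In all, 48.2% of the lower calls and 9.09% of the higher calls differed between p2 and pMN in at least 1 of those 3 comparisons, against 10.1% of all tested. Without the WT pMN library of day 7 that went against its label the shares were 48.3% and 9.23%, against 10.3% of all tested. Outside those intervals 5149 of 139942 were higher (3.68%) and 2441 were lower (1.74%), against 3.64% and 3.03% of the whole table. Split by direction, 44.8% of the lower calls were higher in p2 than in pMN in at least 1 comparison, against 5.72% of all tested. Among the higher calls, 5.05% were higher in pMN than in p2 in at least 1 comparison, against 4.43% of all tested. The lower set had a median level of 33.2 ± 9.49 normalised reads in pMN NFIAn of day 9 (SD, n = 2). The positions of the NFIAp libraries between p2 and pMN move with this result, and their part in it was not tested.

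On day 9 itself, in the NFIAn fractions of WT, 7549 intervals were higher in p2 than in pMN (4.85%) and 1668 were lower (1.07%). This comparison shares the NFIAn p2 libraries with the fraction comparison. Its 3 intervals with the largest change in favour of p2 were Interval_140035, Interval_152633 and Interval_70009. Interval_152633 held 47.0 and 68.4 normalised reads in NFIAp p2, against 143, 178 and 180 in NFIAn p2, and averaged 11.2 ± 6.79 in pMN NFIAn (SD, n = 2). Interval_70009 held 142 and 232, against 483, 715 and 842 in NFIAn p2, with 64.4 ± 40.1 in pMN NFIAn (SD, n = 2). In both, and in Interval_140035, NFIAp lay between NFIAn p2 and pMN, and replicate 2 held 15.6, 104 and 27.0, near pMN. The 3 intervals with the largest change in favour of pMN did not follow. Interval_2440 held 0.94 and 2.81 normalised reads in NFIAp p2, against 3.73, 4.39 and 3.37 in NFIAn p2, and 72.1 in pMN NFIAn on average. Interval_58546 held 16.0 and 12.2 in NFIAp p2, against 8.38, 12.1 and 6.73 in NFIAn p2, and 122 in pMN NFIAn. Interval_82857 held 14.1 and 12.2 in NFIAp p2, against 27.0, 22.0 and 14.3 in NFIAn p2, and 208 in pMN NFIAn. Replicate 2 held 84.0, 125 and 240 in these intervals, values of the pMN order, whereas replicates 1 and 3 stayed at the p2 level and were not called (limma adjusted p = 0.492, 0.349 and 0.283).

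Replicate 2 lay near NFIAn p2 over the higher intervals and below it over the lower ones. Over the 5664 higher intervals its median log2 change from the NFIAn mean was 0.12, against 1.23 and 1.27 in replicates 1 and 3, which chose them. Over the 4716 lower intervals it was -0.90, against -1.32 and -1.14. It lay nearer to NFIAp than to NFIAn in 12.6% of the higher and 64.4% of the lower intervals. The pMN libraries of day 9 were low over the lower intervals in both fractions, at 33.2 normalised reads in NFIAn and 30.2 in NFIAp. Replicate 2 had 36.3 there, against 78.8 in NFIAn p2. Its distances from the pMN NFIAn libraries of day 9 were 0.39 and 0.44, against 0.68 and 0.66 from NFIAp replicates 1 and 3. A retained library lay near pMN by this measure too. NFIAp p2 replicate 1 was 0.49, 0.55 and 0.58 from pMN NFIAp replicates 1, 2 and 3, against 0.57 to 0.72 from NFIAn p2. For NFIAp p2 replicate 3 these distances were 0.67, 0.62 and 0.60, against 0.60 to 0.63.

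The pMN population of the same day was sorted into the same fractions. In pMN, 230 intervals were higher in NFIAp than in NFIAn (0.148%) and 6 were lower (0.00385%), and 16342 had an unadjusted p under 0.05. With the replicate number as a block within genotype and day, 2247 were higher and 138 lower, against 918 in all with the block across all libraries. The pMN count rested on single libraries: in all it was 0 without NFIAn replicate 2, where 10575 intervals had an unadjusted p under 0.05, and 742 without NFIAn replicate 1. Without NFIAp replicates 1, 2 and 3 it was 3, 403 and 541. The p2 and pMN comparisons share no library. Of the intervals higher in NFIAp p2, 148 were called higher in pMN (2.61%, against 0.148% of all tested), and 84.7% had a pMN change above 0, against 53.0% of all tested. Their median pMN change was 0.44, against 0.02 for all tested. It was 0.54 over the intervals called with NFIAp p2 replicate 1 alone and 0.17 over those called with replicate 3 alone. Of the intervals lower in NFIAp p2, 3 were called lower in pMN (0.0636%, against 0.00385% of all tested) and 1 was called higher. Their pMN change was below 0 in 61.2%, against 47% of all tested. The median pMN change was -0.09, against 0.02 for all tested.

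The difference between the populations was tested as an interaction. The fraction change was larger in p2 than in pMN in 429 intervals (0.275%) and smaller or more negative in 1996 (1.28%). In the 429, the median level was 50.2 normalised reads in p2 NFIAp and 10.3 in p2 NFIAn, against 12.5 in pMN NFIAp and 15.0 in pMN NFIAn. In the 1996, it was 63.8 in p2 NFIAp and 154 in p2 NFIAn, against 63.6 in pMN NFIAp and 56.1 in pMN NFIAn. At the median, the 1996 were open in NFIAn p2 and lower in the other 3 groups. The same 4 groups chose both sets, so these levels describe the sets and are no separate test. Of the lower calls in p2, 31.9% passed the interaction test, against 6.87% of the higher calls. The interaction contains the p2 difference that chose these calls, so these shares are no separate test either. The intervals with a larger change in p2 depended most on the setting. In a fit of only the 4 groups compared there were 2 larger and 369 more negative intervals, and with NFIAp p2 replicate 2 included there were 98 and 2333. The counts also moved with single libraries. Without NFIAp p2 replicate 1 there were 2145 larger and 1724 more negative intervals, and without replicate 3 there were 52 and 1383. Without pMN NFIAn replicate 1 there were 37 and 164. In all there were 1225 and 1368 without NFIAn p2 replicates 3 and 2, and 1612 and 1191 without pMN NFIAp replicates 2 and 3. With the replicate block within genotype and day, 1583 were larger and 3395 more negative.

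Called intervals sat beside each other in the numbering more than others did. Of the higher calls, 13.3% had a neighbour by number called the same way, against 7.04% of all tested intervals that had a higher call next to them, and of the lower calls 13.0% did, against 5.87%. Whether consecutive numbers are neighbours in the genome is not stated. The longest runs, chosen after their values were seen, had 5 intervals each. Interval_129088 to Interval_129092 were higher, with log2 changes from 1.02 to 1.45, and all 5 were low, with between 1.68 and 15.4 normalised reads in NFIAn. Interval_18736 to Interval_18740 were lower, with log2 changes from -1.86 to -1.06. Among blocks of 1000 consecutive numbers, 2 shifted as a whole in NFIAp replicate 1, by 0.25 and -0.18 in the median log2 value. Out of 1000 numbers, Interval_40000 to Interval_40999 held 65 higher and 17 lower calls. Interval_142000 to Interval_142999 held 29 higher and 30 lower calls. Over all tested intervals the shares were 3.64% higher and 3.03% lower. Interval_40548, given above as higher in NFIAp, lies in the first of these blocks, the one shifted by 0.25.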

How the data were processed

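CaTS-ATAC libraries were sorted by progenitor population and NFIA fraction, and groups were read from titles and population labels. The authors deposited 1 table of signal values, read counts per interval divided by a library size factor, on build mm10 per the submitters' processing notes. The aligner, peak caller and counter are not given in the sources used here. Every column was a multiple of 1 step, and 100% of values came back as whole reads within 0.01, although 2 columns have a step near 1. ATAC reads are not all independent molecules, so depth limits cover counting error only.

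Each value was turned into log2(value + 5) and fitted by limma (version 3.58.1, R 4.3.3) using a mean-variance trend and 26 group means over 70 libraries (44 residual degrees of freedom), NFIAp p2 replicate 2 left out. Of 155738 intervals, 155734 reached 10 normalised reads in 2 or more libraries and were tested. P-values were Benjamini-Hochberg adjusted over all of them. edgeR 4.0.16 quasi-likelihood tests on the recovered reads were the count alternative, and called 8837 higher and 5988 lower intervals in the p2 comparison with the deposited scaling. Figures were drawn with matplotlib 3.10.9.

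Intervals were named by rule: among those called, at or above the median level and with libraries that did not overlap, the 6 largest changes and the 3 smallest adjusted p in each direction, the 2 largest changes in each class over time, in pMN and in the interaction, and the 2 highest levels in each direction. The 3 largest changes each way between p2 and pMN NFIAn were added. The members, lists and rules were chosen with earlier results of these data known. The population axes and the p0-p1 time course were chosen after seeing the data. Deviations of same-numbered NFIAp and NFIAn p2 libraries had correlations of 0.37, 0.11 and 0.18 over the 3 replicates, the second from the left-out NFIAp replicate 2. Libraries of different numbers had correlations between -0.25 and 0.08. For NFIAp replicate 2 the 0.11 was near its 0.08 with NFIAn replicate 3. The labels do not state a pairing, and whether the numbers pair the libraries was not tested. The reported fit has no replicate term, and the replicate block was an alternative.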

Additional observations from a re-analysis of the deposited data

Results flagged for a closer look

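The change between NFIA fractions differed between p2 and pMN by the interaction test, in 429 intervals where it was larger in p2 and in 1996 where it was smaller or more negative. In a fit of only the groups compared the first count was 2 and the second 369. With replicate 2 included they were 98 and 2333. With the replicate block within genotype and day they were 1583 and 3395. Leaving out a single NFIAp p2 replicate moved the first count down or up, depending on the replicate. In the first set the median change was 1.55 in p2 and -0.19 in pMN, and in the second it was -1.21 in p2 and 0.20 in pMN. The same libraries chose both sets, so these medians are no separate test.

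NFIAp p2 replicate 2 was left out of the reported comparisons because it lay with pMN, so its position restates that choice. It lay at -0.48 on the p2 to pMN axis from MUT day 9, among the pMN libraries of its day. It lay at 0.21 on the axis from WT day 11, where the pMN libraries of day 9 lay between -0.04 and 0.21.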

How the results depend on the processing

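The p2 comparison called 10380 intervals in all, and called 3547 with a pseudocount of 20, 5676 with a mean value of at least 30, 5839 with NFIAp replicate 2 included, 6053 in a fit of only the groups compared and 20227 with adjusted p under 0.05 alone. The other alternatives stayed within 1.5 times, between 7532 outside intervals that differ between p2 and pMN, a setting chosen after seeing the data, and 14825 with edgeR. Leaving out 1 library gave 8412 to 13431. The share of higher calls that rose in WT p2 ranged from 34.4% to 89.3% on leaving out 1 library, without replicate 1 and without replicate 3 of NFIAp, and that of lower calls that fell from 35.0% to 46.8%.

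The interaction called 2425 intervals, and 371 in a fit of only the groups compared (2 larger in p2, 369 more negative), 759 at adjusted p under 0.01 (51 and 708) and 4978 with the replicate block within genotype and day. Leaving out 1 library gave 201 to 3869. The pMN fractions gave 236 calls, against 98 with a pseudocount of 1, 142 with quantile normalization, 356 with equal totals, 84 with library weights, 22 at adjusted p under 0.01, and 918 and 2385 with the replicate block across all libraries and within genotype and day. limma called 0 in a fit of only these groups, where 17063 had an unadjusted p under 0.05, and edgeR called 292. Leaving out 1 library gave 0 to 742. The count was 0 without pMN NFIAn replicate 2, where 10575 had an unadjusted p under 0.05, and 3 without pMN NFIAp replicate 1.

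With a pseudocount of 20, a minimum mean of 30 and adjusted p alone, WT p2 over time gave 34242, 29570 and 98381 calls (59656 as reported), MUT p2 25303, 24531 and 87521 (47188), MUT against WT on day 11 8569, 6822 and 42969 (16189), and p2 against pMN in NFIAn 3744, 5061 and 15536 (9217). Leaving out 1 library gave 58317 to 61511, 45559 to 50285, 16138 to 18023 and 6055 to 10559, the lowest of the last without pMN NFIAn replicate 1. The cause of these moves was not tested, except that a higher minimum tests fewer intervals. The replicate block moved no other count by more than 1.5 times. The block within genotype and day could not be fitted for comparisons between days or genotypes.

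Of 867 values of named intervals under the alternatives, 812 kept direction and call, 55 lost the call and 0 reversed. Including replicate 2 lost 11 of them. At the median level counting error is 18.9%. The other intervals among the 20227 were left out of the reported calls by the threshold of 1 on the log2 scale. The part of depth in their smaller changes was not tested.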
